A study of Mus musculus with 9 samples.

Results

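The genes described here are 33 genes that mark T cells and cytotoxic lymphocytes, followed through every library of an RNA sequencing study of mouse dorsal root ganglia. They were taken by symbol from the deposited table, through the Ensembl identifiers that carry these symbols, and all 33 had a row among the 45904 identifiers of the table. The ganglia are clusters of sensory neurons and glia beside the spinal cord, and those sampled whole here send their axons into the sciatic nerve. C57BL/6 mice with no genetic change named in the labels had either a sciatic nerve injury or a sham operation, and the ganglia were taken 24 h later. The 9 libraries form 3 groups of 3, namely injured aged mice (20 to 22 months, aged injury), sham-operated aged mice of the same age (aged sham) and sham-operated young mice (8 to 10 weeks, young sham). Young mice with an injury were not analysed here, so the effect of injury was measured in aged mice only. Each library pooled the ganglia of 2 mice, and the p-values below measure the spread between such pools.

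T cells recognise peptides on other cells through the T cell receptor, whose variable chains are held at the membrane by the CD3 chains. The coreceptors CD4 and CD8 divide the T cells into helper and cytotoxic cells, and the kinases Lck and Zap70 with the adaptor Lat carry the signal inward. Cytotoxic T cells and natural killer cells store granzymes and perforin in granules that they release onto target cells. Healthy ganglia are known to hold few T cells among neurons, glia and macrophages.

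Levels are given as FPKM, fragments per kilobase of gene length scaled to library depth, and values of a group are listed in the order of replicates 1, 2 and 3. The 33 genes were low: 24 averaged 0.2 FPKM or more across all 9 libraries, between 0.207 and 3.99 FPKM, and were tested. The other 9 (Themis, Skap1, Gzmb, Prf1, Klrk1, Klrc1, Eomes, Ifng and Fasl) had means of 0.0495 to 0.187 FPKM and are described by their values alone. Whole reads could be recovered from the steps in the values of all 33 genes, as the smallest whole numbers that fit. Over the 33 genes they came to 329, 1837 and 499 reads in aged injury, 184, 1131 and 354 reads in aged sham, and 118, 130 and 104 reads in young sham. In young sham, 6 or 7 of the 33 genes were at 0 in each library, against none to 3 in each aged library, so levels in young ganglia often rest on a handful of reads.

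The summed level of the 33 genes was 13.5, 93.5 and 27.2 FPKM in aged injury, 9.14, 72.6 and 18.6 FPKM in aged sham, and 5.48, 6.5 and 4.96 FPKM in young sham. All 6 aged libraries were above all 3 young libraries, and replicate 2 stood far above the rest in both aged groups. Replicate 2 was the highest library of both aged groups for 31 of the 33 genes, with Gzma and Gzmb as the exceptions. Among the 24 tested genes it was so for 23, and among all 17601 genes tested for 21.2%. Taken alone, aged sham 2 was the highest aged sham library for 23 of the 24, against 40.4% of all genes, and aged injury 2 the highest aged injury library for all 24, against 41.3%. At the other end, aged sham 1 was the lowest aged sham library for 22 of the 24, against 40.8% of all genes. The labels name nothing that replicate 2 of the aged groups shares beyond its number. Counts of calls without it are given below.

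**Figure D1:**
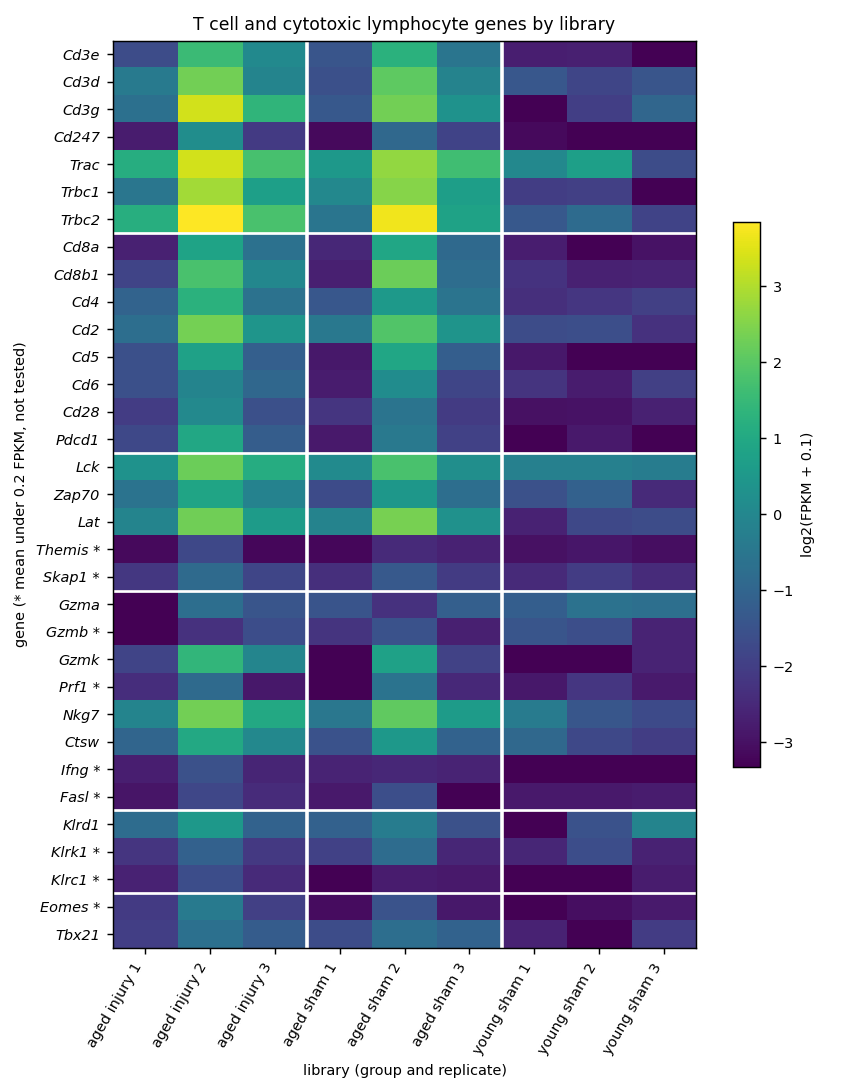
Colour shows log2(FPKM + 0.1) of each of the 33 genes (rows, by role, with white lines between roles) in each of the 9 libraries (columns, 3 per group). The columns of aged injury 2 and aged sham 2 are the brightest for most rows, and an asterisk marks the 9 genes with a mean under 0.2 FPKM.

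The pools also differed in sex. The summed level of 4 Y-linked genes was 0.0133, 0 and 0 FPKM in aged injury, 21.8, 0 and 0.0101 FPKM in aged sham, and 31.7, 29.1 and 33.1 FPKM in young sham. Male RNA was therefore present in the young pools and in aged sham 1 and almost absent from the other 5 aged pools, so age and sex cannot be told apart in any comparison with young ganglia. Among the aged pools, only aged sham 1 held more than traces of it, so sex also enters the comparison of injury with sham. Depth, read from the FPKM worth of 1 read, differed little: that worth ranged from 0.816 (aged injury 1, the deepest) to 1.18 (aged sham 2, the shallowest) relative to young sham 1. In whole tissue, fewer T cells and less RNA per T cell cannot be told apart.

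The 7 genes of the receptor itself made up the largest share of the summed level in every aged library. Their summed level was 6.28, 50.4 and 12.7 FPKM in aged injury, 3.63, 36.8 and 8.92 FPKM in aged sham, and 1.71, 2.57 and 1.08 FPKM in young sham. Each aged library lay above each young library, although the gap between aged sham 1 and young sham 2 was small.

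Trbc2, a constant region of the receptor beta chain (chromosome 6, 41546730 to 41548352, build mm10), had the highest mean of the 33 genes. It was at 2.14, 14.3 and 3.38 FPKM in aged injury, 0.596, 12.9 and 1.64 FPKM in aged sham, and 0.291, 0.463 and 0.172 FPKM in young sham. The aged and the young libraries did not overlap. Trbc1, the other beta constant region 6.85 kb away (chromosome 6, 41538218 to 41539881), was at 0.605, 7.12 and 1.57 FPKM in aged injury, 0.91, 5.78 and 1.52 FPKM in aged sham, and 0.148, 0.157 and 0 FPKM in young sham. Its young levels rest on 1, 1 and 0 reads, and again the aged and young libraries were apart. The 2 beta constant regions are near-identical in sequence, so the counting could have split or dropped their reads and the level of each one is uncertain. Trac, the alpha chain constant region, was at 2.1, 10.1 and 3.3 FPKM in aged injury, 1.32, 6.29 and 3.01 FPKM in aged sham, and 0.918, 1.56 and 0.217 FPKM in young sham. Here young sham 2 lay above aged sham 1, so the sham groups overlapped, while the aged injury libraries were all above the young ones.

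The CD3 genes Cd3d, Cd3g and Cd3e lie side by side on chromosome 9. Cd3d (44981786 to 44987339) and Cd3g (44969572 to 44980431) start 1.35 kb apart and are transcribed away from each other, and Cd3e (44998740 to 45009627) lies 11.4 kb beyond Cd3d. The 250 bases before each of the divergent starts, from RefSeq (GRCm38.p6), are shown because the pair start so close to each other. Capitals mark the core letters that ETS family factors bind (GGAAG, or CTTCC on the other strand).
Cd3d promoter, chr9:44981536-44981785, plus strand: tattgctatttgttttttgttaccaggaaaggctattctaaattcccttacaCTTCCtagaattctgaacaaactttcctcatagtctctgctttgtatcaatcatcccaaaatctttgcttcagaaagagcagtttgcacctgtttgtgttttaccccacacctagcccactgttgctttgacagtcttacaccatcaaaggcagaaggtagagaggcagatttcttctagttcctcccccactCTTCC
Cd3g promoter, chr9:44980432-44980681, minus strand: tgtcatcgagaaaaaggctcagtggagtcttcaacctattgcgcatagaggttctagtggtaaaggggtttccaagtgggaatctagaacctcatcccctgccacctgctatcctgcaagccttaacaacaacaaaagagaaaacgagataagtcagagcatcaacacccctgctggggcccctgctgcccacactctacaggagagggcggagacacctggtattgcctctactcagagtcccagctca
The first window holds 2 matches and the second none. Of all 27025 RefSeq promoter windows of this length, 63.6% hold a match on either strand, as do 17 of the 22 members with a window in the table (77.3%). These are letter matches, not sites.

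Cd3d was at 0.655, 4.85 and 0.848 FPKM in aged injury, 0.235, 4.13 and 0.822 FPKM in aged sham, and 0.287, 0.182 and 0.271 FPKM in young sham. Aged sham 1 lay within the young range, and all aged injury libraries lay above it. Cd3g was at 0.521, 10.2 and 2.47 FPKM in aged injury, 0.29, 4.94 and 1.16 FPKM in aged sham, and 0, 0.15 and 0.419 FPKM in young sham. Aged sham 1 was again below the highest young library, and the aged injury libraries were above all young ones. Cd3e, the chain most used to mark T cells, was at 0.216, 2.84 and 0.949 FPKM in aged injury, 0.27, 2.31 and 0.595 FPKM in aged sham, and 0.0528, 0.056 and 0 FPKM in young sham. All aged libraries were above all young ones, which held 1, 1 and 0 reads. Cd247, the zeta chain that carries the signal of the complex and serves some receptors of natural killer cells too, was much lower, at 0.0461, 1.05 and 0.134 FPKM in aged injury, 0.0145, 0.434 and 0.173 FPKM in aged sham, and 0.0141, 0 and 0 FPKM in young sham. Its lowest aged library and its highest young library each held 1 read. Its exons also overlap those of Pou2f1 on the other strand, and how strand was counted is not stated in the labels or notes.

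Coreceptors and surface receptors (8 genes) summed to 1.93, 17.5 and 4.58 FPKM in aged injury, 1.28, 15.4 and 3.54 FPKM in aged sham, and 0.64, 0.523 and 0.567 FPKM in young sham. No aged library overlapped a young one. Cd8a, the alpha chain of CD8 (chromosome 6, 71373427 to 71379173), was at 0.0593, 1.68 and 0.538 FPKM in aged injury, 0.0745, 1.8 and 0.447 FPKM in aged sham, and 0.0485, 0 and 0.0286 FPKM in young sham. Replicates 1 of both aged groups held 3 reads each, barely above the 2, 0 and 1 reads of the young libraries. Cd8b1, the beta chain, which conventional cytotoxic T cells carry, lies 35.93 kb from Cd8a and was at 0.175, 3.34 and 0.904 FPKM in aged injury, 0.0548, 4.61 and 0.493 FPKM in aged sham, and 0.107, 0.0567 and 0.0632 FPKM in young sham. With 1 read, aged sham 1 was below every young library. Of the 33 genes, Cd8b1 had the widest spread within a group whose lowest library was above 0, 84.2-fold between the highest and lowest aged sham library.

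Cd4, the coreceptor of helper T cells, which some macrophages and dendritic cells also express, was at 0.384, 2.3 and 0.557 FPKM in aged injury, 0.289, 1.33 and 0.578 FPKM in aged sham, and 0.094, 0.12 and 0.156 FPKM in young sham. It rested on 15 to 127 reads per aged library and 5 to 7 per young library, and the aged and young libraries were apart. The ratio of Cd8a to Cd4 within a library was 0.155, 0.73 and 0.966 in aged injury, 0.258, 1.35 and 0.773 in aged sham, and 0.515, 0 and 0.184 in young sham. Replicates 1 of the aged groups, where both genes were low, had the lower ratios, and the groups overlapped.

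Cd2, an adhesion receptor of T and natural killer cells, was at 0.498, 4.94 and 1.24 FPKM in aged injury, 0.625, 3.6 and 1.2 FPKM in aged sham, and 0.218, 0.231 and 0.103 FPKM in young sham. Each aged library was above each young one. Cd5, which dampens receptor signals and which some B cells also carry, was at 0.239, 1.62 and 0.349 FPKM in aged injury, 0.0375, 1.78 and 0.338 FPKM in aged sham, and 0.0367, 0 and 0 FPKM in young sham. Aged sham 1 and young sham 1 held 1 read each, so that the sham groups were apart only by the depth of the libraries. Cd28, the main costimulatory receptor, was at 0.142, 0.941 and 0.236 FPKM in aged injury, 0.114, 0.571 and 0.14 FPKM in aged sham, and 0.0248, 0.0263 and 0.0585 FPKM in young sham. It too was higher in every aged library. Cd6, a relative of Cd5 that lies 50.34 kb from it, was at 0.236, 0.836 and 0.424 FPKM in aged injury, 0.0456, 1.03 and 0.183 FPKM in aged sham, and 0.111, 0.0473 and 0.158 FPKM in young sham, with the sham groups overlapping.

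Pdcd1, the inhibitory receptor PD-1 that T cells carry after repeated stimulation, was at 0.193, 1.85 and 0.333 FPKM in aged injury, 0.0403, 0.651 and 0.161 FPKM in aged sham, and 0, 0.0417 and 0 FPKM in young sham. The aged injury libraries were above the young ones, and aged sham 1, with 1 read, was not. Set against the summed Cd3e, Cd3d and Cd3g of the same library, Pdcd1 was 0.138, 0.104 and 0.0779 in aged injury and 0.0506, 0.0572 and 0.0625 in aged sham. The aged groups did not overlap in this ratio. Of the 30 members outside these 3 CD3 genes, the same held for Eomes, also higher in aged injury, and in the other direction for Trbc1. Of all tested genes 0.187% were so separated for higher and 0.159% for lower, and a gene that does not follow CD3 has a wide spread in this ratio within each aged group. The ratios were looked at after the levels were known and were not tested, and that of Pdcd1 rests on 1 read in aged sham 1.

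The 5 signalling genes summed to 2.72, 11.7 and 4.5 FPKM in aged injury, 2.11, 10.1 and 2.88 FPKM in aged sham, and 1.19, 1.51 and 1.11 FPKM in young sham, with every aged library above every young one. Lck, the kinase that starts the receptor signal, was at 1.16, 4.58 and 2.08 FPKM in aged injury, 0.981, 3.34 and 1.06 FPKM in aged sham, and 0.777, 0.769 and 0.703 FPKM in young sham. With 23 to 30 reads per library it had the most reads of the 33 genes in young ganglia, and each aged library was above each young one. Zap70, the kinase that docks on the CD3 and zeta chains, was at 0.568, 1.71 and 0.809 FPKM in aged injury, 0.214, 1.27 and 0.499 FPKM in aged sham, and 0.243, 0.369 and 0.0822 FPKM in young sham. Aged sham 1 lay within the young range. Lat (chromosome 7, 126363824 to 126369570), the membrane adaptor on which the signalling complex assembles, was at 0.849, 4.77 and 1.42 FPKM in aged injury, 0.815, 5.14 and 1.13 FPKM in aged sham, and 0.0612, 0.195 and 0.217 FPKM in young sham. Even the lowest aged library was well above the highest young one, with 13 to 81 reads per aged library and 1 to 3 per young library. Of the low genes, Themis, a regulator of T cell development, reached at most 0.194 FPKM, and Skap1, an adaptor of T cell adhesion, at most 0.459 FPKM, both in aged injury 2.

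**Figure D2:**
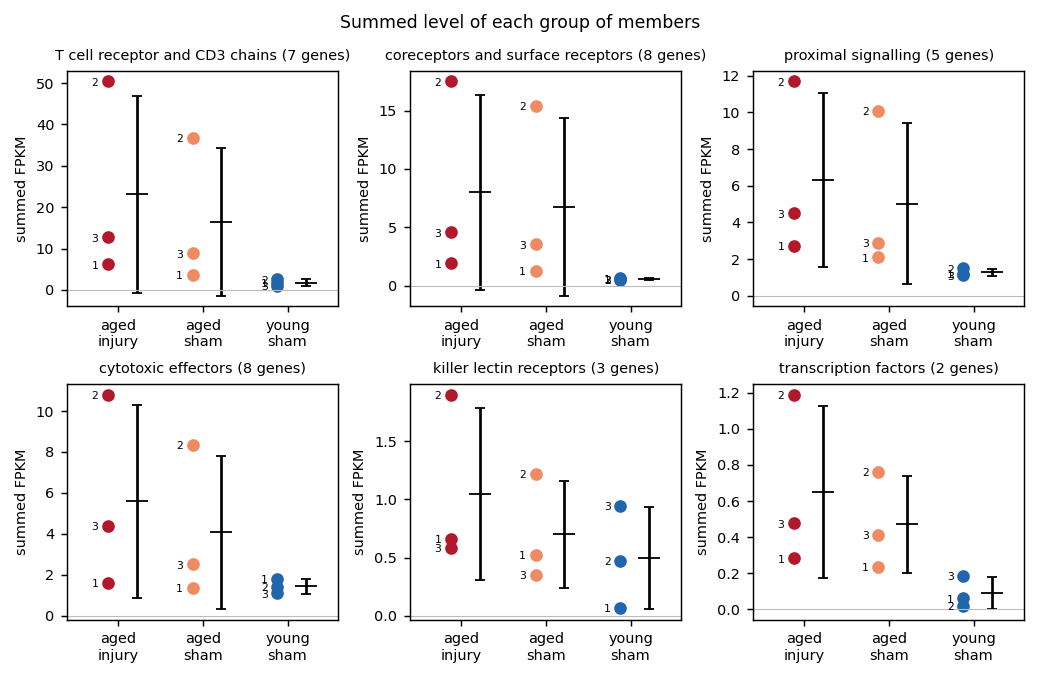
Summed FPKM of each group of members in each library (points, with the replicate number beside them), with the mean and SD of the 3 libraries of a group (horizontal tick and bar), for aged injury, aged sham and young sham. Replicate 2 is the highest library of both aged groups in all 6 panels, and the effector and killer lectin panels show aged libraries within the young range.

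Among the cytotoxic effectors, the mean levels of the granzymes put the groups in different orders, on few reads, and this difference was not tested. Granzymes are serine proteases that enter the target cell, and Gzma and Gzmk lie 70.63 kb apart on the same strand of chromosome 13 (Gzma at 113093825 to 113100981, Gzmk at 113171608 to 113225908). The 250 bases before each start are shown because young sham had the lowest mean level of Gzmk and the highest of Gzma. Capitals mark ETS letters (GGAAG or CTTCC), RUNX letters (TGTGGT or ACCACA) and T-box letters (TCACAC or GTGTGA), and the matches do not overlap. The RefSeq start of Gzmk lies within the longer GENCODE gene.
Gzmk promoter, chr13:113180966-113181215, minus strand: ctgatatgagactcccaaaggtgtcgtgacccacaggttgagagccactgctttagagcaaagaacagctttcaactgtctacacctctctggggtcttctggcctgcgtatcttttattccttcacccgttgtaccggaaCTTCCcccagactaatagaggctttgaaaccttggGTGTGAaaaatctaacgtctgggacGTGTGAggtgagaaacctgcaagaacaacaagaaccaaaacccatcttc
Gzma promoter, chr13:113100982-113101231, minus strand: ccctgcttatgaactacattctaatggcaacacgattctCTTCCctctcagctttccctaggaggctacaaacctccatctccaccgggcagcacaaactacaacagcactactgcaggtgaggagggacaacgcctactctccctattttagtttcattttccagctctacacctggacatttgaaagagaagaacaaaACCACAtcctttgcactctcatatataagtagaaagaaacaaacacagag
The Gzmk window holds 1 ETS and 2 T-box matches, and the Gzma window 1 ETS and 1 RUNX match. RUNX letters are in 14.2% of all 27025 windows and in 7 of the 22 member windows (31.8%: Gzma, Gzmb, Klrc1, Klrk1, Lck, Nkg7 and Prf1). T-box letters are in 12.2% of all windows and in 4 of the 22 (18.2%: Gzmb, Gzmk, Lck and Nkg7). These counts describe letters and were not tested.

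Gzmk was at 0.178, 2.52 and 0.866 FPKM in aged injury, 0, 1.61 and 0.168 FPKM in aged sham, and 0, 0 and 0.0645 FPKM in young sham. All aged injury libraries were above the young ones, in which 1 read was found in all, while aged sham 1 held none. Gzma was at 0, 0.499 and 0.274 FPKM in aged injury, 0.265, 0.102 and 0.354 FPKM in aged sham, and 0.346, 0.55 and 0.51 FPKM in young sham. It was the only one of the 24 tested genes with a lower mean log2 level in both aged groups than in young sham, and its groups overlapped at 0 to 6 reads per library. The level of Gzmk over that of Gzma was 5.06 and 3.16 in aged injury 2 and 3, was not defined in aged injury 1 where Gzma was at 0, and was 0, 15.8 and 0.474 in aged sham and 0, 0 and 0.126 in young sham. Thus Gzmk exceeded Gzma in all 3 aged injury libraries, in 1 aged sham library and in no young library.

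Gzmb, the granzyme best known for triggering apoptosis, stayed at 0 to 0.226 FPKM in aged injury, 0.0548 to 0.253 FPKM in aged sham and 0.0632 to 0.267 FPKM in young sham, at 5 reads or fewer per library. Prf1, the pore-forming perforin, was at 0.0904, 0.462 and 0.039 FPKM in aged injury, 0, 0.567 and 0.0756 FPKM in aged sham, and 0.0369, 0.118 and 0.0436 FPKM in young sham. Outside replicate 2 of the aged groups, no library held more than 3 Prf1 reads.

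Nkg7, a granule membrane protein needed for degranulation, was the highest of the effectors, at 0.846, 4.9 and 1.92 FPKM in aged injury, 0.619, 4.19 and 1.42 FPKM in aged sham, and 0.691, 0.275 and 0.204 FPKM in young sham. The aged injury libraries were above the young ones, and aged sham 1 was below young sham 1. Ctsw, a cathepsin of cytotoxic cells, was at 0.402, 1.89 and 0.911 FPKM in aged injury, 0.252, 1.31 and 0.378 FPKM in aged sham, and 0.431, 0.196 and 0.145 FPKM in young sham, with overlap between all groups. Its exons overlap those of Fibp on the other strand, which averaged 21.6 FPKM, and without strand the reads of the overlap cannot be told apart. Ifng, the cytokine interferon gamma, was at 0.0513, 0.242 and 0.0664 FPKM in aged injury and 0.0644, 0.0743 and 0.0643 FPKM in aged sham and was listed at 0 in all young libraries, on 1 to 4 reads per aged library. Fasl, the death ligand on cytotoxic cells, did not exceed 0.232 FPKM.

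**Figure D3:**
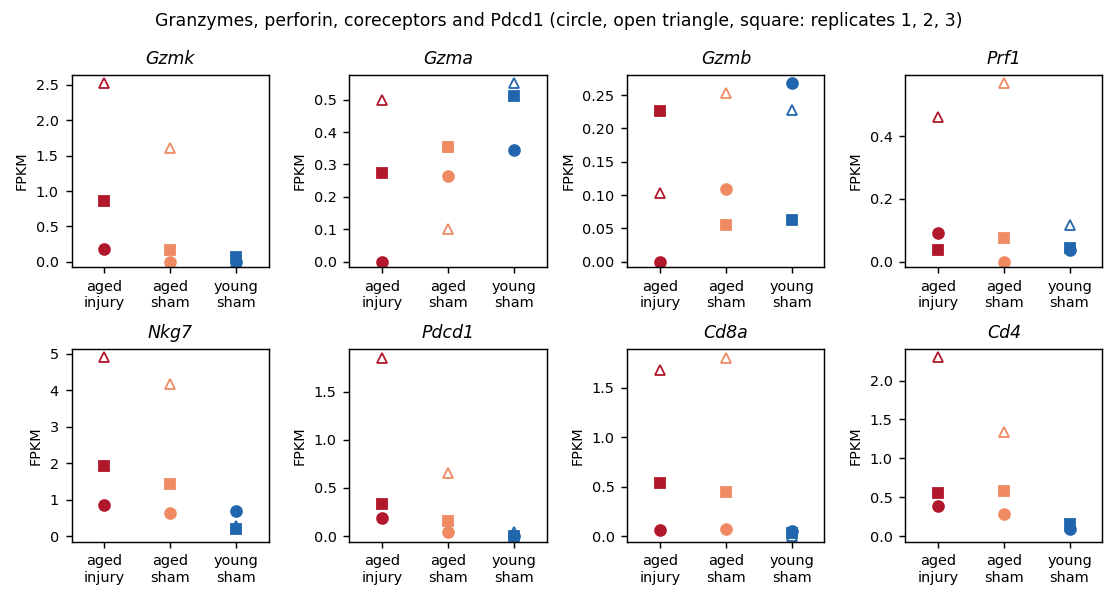
FPKM of Gzmk, Gzma, Gzmb, Prf1, Nkg7, Pdcd1, Cd8a and Cd4 in each library of aged injury, aged sham and young sham (circle, open triangle and square for replicates 1, 2 and 3; each panel has its own linear axis). Gzmk is at 0.0645 FPKM or less in young sham and reaches 2.52 FPKM in aged injury 2, while Gzma is at 0.346 to 0.55 FPKM in young sham and at 0 in aged injury 1.

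The 3 killer lectin receptors, which natural killer cells and some cytotoxic T cells carry, summed to 0.66, 1.9 and 0.586 FPKM in aged injury, 0.526, 1.22 and 0.354 FPKM in aged sham, and 0.0703, 0.475 and 0.947 FPKM in young sham. This was the only role whose summed level in 1 young library exceeded 4 of the 6 aged libraries. Klrd1, the CD94 chain that pairs with the NKG2 receptors, was at 0.483, 1.31 and 0.375 FPKM in aged injury, 0.364, 0.7 and 0.242 FPKM in aged sham, and 0, 0.251 and 0.839 FPKM in young sham, and only aged injury 2 was above all young libraries. Klrk1, the activating receptor NKG2D, was at 0.115, 0.372 and 0.13 FPKM in aged injury, 0.162, 0.477 and 0.0719 FPKM in aged sham, and 0.0703, 0.224 and 0.0622 FPKM in young sham. Klrc1, the NKG2A chain, was found in 6 reads at most, at 0.0624, 0.221 and 0.0808 FPKM in aged injury, 0, 0.0452 and 0.0391 FPKM in aged sham, and 0, 0 and 0.0452 FPKM in young sham. It was the only one of the 33 genes whose aged injury libraries all lay above the aged sham libraries, against 11.7% of all tested genes. Klrc1 was not tested, and this order rests on 2, 6 and 2 reads in aged injury against 0, 1 and 1 in aged sham.

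Of the transcription factors of cytotoxic cells, Eomes, a T-box factor, was at 0.134, 0.667 and 0.154 FPKM in aged injury, 0.0187, 0.259 and 0.0374 FPKM in aged sham, and 0, 0.0194 and 0.0431 FPKM in young sham. The aged injury libraries, with 8 to 38 reads, were above the young ones, with 2 reads or fewer. Tbx21, which encodes the related factor T-bet, was at 0.149, 0.528 and 0.322 FPKM in aged injury, 0.219, 0.504 and 0.375 FPKM in aged sham, and 0.061, 0 and 0.144 FPKM in young sham. It had the narrowest spread within aged sham of the tested genes, 2.31-fold between highest and lowest, and all aged libraries were above the young ones.

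Without injury, the question was how ganglia of aged mice differ from those of young mice. None of the 24 tested genes was called by limma at an adjusted p under 0.05 (Benjamini-Hochberg over 17601 genes), where 4.02% of all genes were called, 2.53% higher and 1.49% lower. At an unadjusted p under 0.05, 10 of the 24 were higher in aged sham, against 15.9% of all genes. The libraries of the groups did not overlap for 12 of the 24, all higher in aged sham, where the same held for 17.7% of all genes. They were Cd2, Cd247, Cd28, Cd3e, Cd4, Cd5, Cd8a, Lat, Lck, Tbx21, Trbc1 and Trbc2. The median log2 difference over the 24 was 1.69, beside 0.05 over all tested genes, and 23 of the 24 were above 0. The filter limits these counts, because it used the mean of all 9 libraries. A gene with a young mean below 0.2 FPKM passed only through its aged libraries, so a higher aged mean was fixed in advance. Such genes include Cd247, Cd5, Pdcd1 and Gzmk, with young means of 0.0047, 0.0122, 0.0139 and 0.0215 FPKM. Cd3g, Cd6 and Cd8b1 are others, as are all of the 12 genes without overlap except Lck and Trbc2. Lck and Trbc2 had young means of 0.75 and 0.309 FPKM. Set beside the shares of all genes, these counts and the median are therefore not support for a rise. With the mean log2 level of the Y-linked genes as a covariate, the median was 0.35 and 16 of the 24 were above 0. Within groups that level differed mainly through aged sham 1, on which this fit therefore rests. The median was 0.97 without aged sham 2 and 2.48 without aged sham 1, with 23 of the 24 above 0 in both. All 6 aged libraries were above all 3 young ones for the same 12 genes, against 8.96% of all genes. Log2 differences are of log2(FPKM + 0.1), which understates the change of genes near 0 and depends on the added value.

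Nearest to a call were the beta constant region Trbc1 and the adaptor Lat. Trbc1 averaged 2.73 ± 2.65 FPKM in aged sham and 0.102 ± 0.0882 FPKM in young sham (SD, n = 3 each), a log2 difference of 3.52 (SE 0.88, limma adjusted p = 0.0551). Lat averaged 2.36 ± 2.41 FPKM in aged sham and 0.158 ± 0.0842 FPKM in young sham, a log2 difference of 2.87 (SE 0.73, limma adjusted p = 0.0576). In both genes the SD of the aged sham libraries was about as large as their mean, because of aged sham 2. Without that library the log2 differences were 2.78 for Trbc1 and 2.1 for Lat (limma adjusted p = 0.134 and 0.124), and with the Y-linked covariate 2.24 and 1.72 (limma adjusted p = 0.431 and 0.458). Next were Cd2 with 2.45 (SE 0.77, limma adjusted p = 0.0916) and Cd3e with 2.67 (SE 0.85, limma adjusted p = 0.0924). Both also had no overlap between the sham groups. Without aged sham 2 they differed by 1.81 and 1.93 (limma adjusted p = 0.223 and 0.22). The coreceptors differed by 1.71 for Cd4 (95% interval 0.29 to 3.12, limma adjusted p = 0.13) and by 2.19 for Cd8a (-0.03 to 4.41, limma adjusted p = 0.194), and Cd8a by 1.32 without aged sham 2 (limma adjusted p = 0.442). Lck, with the most reads in young ganglia, differed by 0.94 (-0.23 to 2.11, limma adjusted p = 0.279). Gzma was the exception in direction, with -0.8 (-2.22 to 0.62, limma adjusted p = 0.446).

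Injury was compared with sham in aged ganglia, the only age with both. No tested gene was called by limma, where 4.11% of all genes were called, 2.45% higher and 1.65% lower. None had an unadjusted p under 0.05 in either direction, against 9.39% of all genes for higher alone, and none of the 24 had groups that did not overlap, against 11.7% of all genes for higher and 13.7% for lower. The median log2 difference was 0.42, beside -0.01 over all genes, with 20 of the 24 above 0. The direction hung on single libraries: the median was -0.29 without aged injury 2, -0.11 without aged sham 1, 0.96 without aged injury 1 and 1.02 without aged sham 2. The median was also -0.11 with the Y-linked covariate. Among the aged libraries that covariate differs mainly through aged sham 1, so this fit is not a check separate from leaving that library out. The intervals were wide: Cd8a differed by -0.00 (95% interval -2.22 to 2.21), Cd3e by 0.22 (-1.69 to 2.13) and Lck by 0.53 (-0.64 to 1.69), and of the 24 intervals 23 reached a 2-fold rise or more and 20 a 2-fold fall or more. Gzmk had the largest difference, 1.31 (-1.07 to 3.7, limma adjusted p = 0.545), with 1.19 ± 1.2 FPKM in aged injury and 0.594 ± 0.887 FPKM in aged sham (SD, n = 3 each). Pdcd1 followed with 1.06 (-0.76 to 2.87, limma adjusted p = 0.521). Between replicates 2 of the aged groups, set side by side, the level in aged injury over that in aged sham had a median of 1.35 over the 24 genes, from 0.725 for Cd8b1 to 4.88 for Gzma.

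Aged injury against young sham differs in age, injury and sex at once and shares its libraries with both comparisons above. Here 3 of the 24 tested genes rose and none fell, where 8.2% of all genes were called higher and 4.89% lower. The 3 make up 12.5% of the 24, close to that background. Trbc2 averaged 6.6 ± 6.68 FPKM in aged injury and 0.309 ± 0.146 FPKM in young sham (SD, n = 3 each), a log2 difference of 3.62 (SE 1.0, limma adjusted p = 0.045). Trbc1 averaged 3.1 ± 3.52 FPKM in aged injury and 0.102 ± 0.0882 FPKM in young sham, a log2 difference of 3.46 (SE 0.88, limma adjusted p = 0.034). Lat averaged 2.35 ± 2.12 FPKM in aged injury and 0.158 ± 0.0842 FPKM in young sham, a log2 difference of 2.96 (SE 0.73, limma adjusted p = 0.031). In each of the 3, the SD of the aged injury libraries was close to or above their mean. In all, 18 of the 24 had an unadjusted p under 0.05 in the higher direction, against 16.8% of all genes. For 21 of the 24 the groups did not overlap, all higher in aged injury, against 19.9% of all genes. The 3 exceptions were Gzma, Ctsw and Klrd1. The median log2 difference over the 24 was 2.22, beside 0.02 over all genes. The filter limits these counts in the same way as in the comparison of the sham groups. Of the 3 called genes, Trbc1 and Lat had young means under 0.2 FPKM and passed it only through their aged libraries. The same holds for all of the 21 genes without overlap except Cd3d, Lck, Nkg7, Trac, Trbc2 and Zap70. Set beside the shares of all genes, the counts and the median are therefore not support for a rise.

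The 3 calls hung on the settings of the fit and on single libraries. With the Y-linked covariate none of the 24 was called, the log2 differences were 1.31 for Lat, 1.63 for Trbc1 and 0.52 for Trbc2 (limma adjusted p = 0.706 to 0.92), and the median over the 24 was 0.46. None was called without the filter on low values, while 10 were called with array weights and 11 with the replicate block. None of the 24 was called without aged injury 2, aged injury 3, young sham 1, young sham 2 or young sham 3, and 1 without aged sham 3. There were 4 calls without aged injury 1 and 4 without aged sham 2. Without replicate 2 of both aged groups, none was called by limma in the other 2 comparisons. In aged injury against young sham, 2 were then called, Lat and Trbc2. With 1 FPKM added in place of 0.1, the log2 differences were 1.36 for Lat, 1.55 for Trbc1 and 2.19 for Trbc2, and none was called (limma adjusted p = 0.106 to 0.128).

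**Figure D4:**
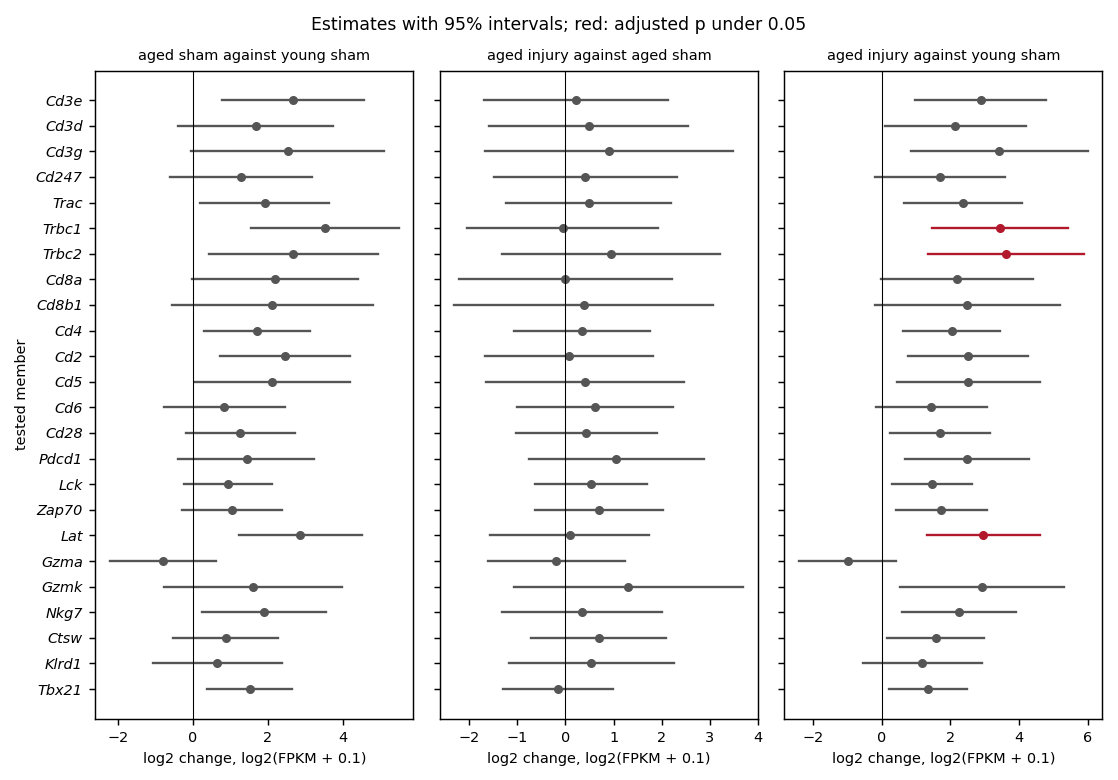
Log2 difference of the 24 tested genes (points) with its 95% interval (bars) for the age comparison (left), the injury comparison in aged mice (middle) and aged injury against young sham (right), on the scale of log2(FPKM + 0.1). Red marks Trbc1, Trbc2 and Lat, the 3 genes with an adjusted p under 0.05, and every interval in the middle panel spans 0.

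Other T cell genes were read from lists outside the 33. Of 11 tested signalling and adaptor genes (16 listed), Fyb, an adaptor of T cells and myeloid cells, rose in aged sham and 10 did not pass. Fyb averaged 1.24 ± 0.394 FPKM in aged sham and 0.509 ± 0.0309 FPKM in young sham (SD, n = 3 each; log2 difference 1.10, limma adjusted p = 0.0451). In aged injury against young sham, Fyb rose (log2 difference 1.56, limma adjusted p = 0.00617), Rasgrp1 fell and 9 did not pass. Rasgrp1, a Ras activator of T cells that neurons also express, was at 24.6 ± 3.93 FPKM in aged injury and 33.7 ± 0.858 FPKM in young sham (log2 difference -0.46, limma adjusted p = 0.0169).

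None of 11 tested costimulation and checkpoint genes (16 listed) was called by limma in any comparison, with 2 at an unadjusted p under 0.05 in aged sham against young sham, 5 in aged injury against young sham and 0 in aged injury against aged sham. Tigit, an inhibitory receptor of T and natural killer cells, averaged 1.37 ± 1.77 FPKM in aged injury, 0.85 ± 0.712 FPKM in aged sham and 0.0278 ± 0.0482 FPKM in young sham (SD, n = 3 each). Of 17 tested lineage and homing genes (19 listed), none was called by limma in aged sham against young sham (5 at an unadjusted p under 0.05), and in aged injury against young sham Ccl5 and Cxcr6 rose and 15 did not pass. Ccl5, a chemokine that activated cytotoxic cells release, averaged 4.85 ± 4.35 FPKM in aged injury and 0.543 ± 0.429 FPKM in young sham (log2 difference 2.84, limma adjusted p = 0.0391). The homing receptor Cxcr6 had a log2 difference of 1.69 (limma adjusted p = 0.0408). Among 7 tested chemokines that attract T cells (9 listed), Cxcl16, the ligand of Cxcr6, rose in both aged groups against young sham and 6 did not pass. It averaged 2.96 ± 0.71 FPKM in aged injury, 2.45 ± 0.321 FPKM in aged sham and 1.38 ± 0.196 FPKM in young sham (limma adjusted p = 0.00884 for aged injury and 0.0466 for aged sham). No gene of these 4 lists was called by limma in aged injury against aged sham, with 1 signalling gene and none of the other lists at an unadjusted p under 0.05.

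Markers of other cell types moved with the 33 genes to different extents. The summed level of 12 B and plasma cell genes was 366, 3070 and 1360 FPKM in aged injury, 122, 806 and 463 FPKM in aged sham, and 41.4, 33.9 and 40.6 FPKM in young sham, in the same order of libraries within each aged group. Most of this sum in every library was the immunoglobulin constant genes Igkc and Ighm, so it says little about the other genes of the list. Of the 12, Igkc rose in aged sham against young sham (limma adjusted p = 0.0344) and 11 did not pass. In aged injury against young sham, Igkc, Ighm and Jchain rose and 9 did not pass, and none was called by limma in aged injury against aged sham. Summed Cd3e, Cd3d and Cd3g over summed Cd79a, Cd79b and Ms4a1, surface genes of B cells, was 0.312, 0.369 and 0.353 in aged injury, 0.198, 0.407 and 0.344 in aged sham, and 0.226, 0.145 and 0.206 in young sham. This ratio lay between 0.145 and 0.407 in all 9 libraries, while the CD3 sum alone ranged from 0.339 to 17.9 FPKM. Macrophage markers (10 genes) summed to 121, 232 and 154 FPKM in aged injury, 130, 296 and 221 FPKM in aged sham, and 79.3, 81.1 and 89.4 FPKM in young sham, as a sum again highest in replicate 2 of the aged groups. Most of this sum was Lyz2, at 73.3, 164 and 94.7 FPKM in aged injury and 88, 226 and 168 FPKM in aged sham. Csf1r, Mrc1, Cd163 and Itgam were highest in aged injury 3, and Cd68 and Itgam in aged sham 3. In each aged group the others of the 10 peaked in replicate 2. Cd68, Csf1r and Lyz2 rose in aged sham against young sham (limma adjusted p = 0.0337, 0.0433 and 0.0495), and 7 did not pass. In aged injury against young sham, C1qa, Cd163, Cd68, Csf1r, Itgam and Mrc1 rose and 4 did not pass. Against aged sham, Mrc1 rose in aged injury (limma adjusted p = 0.0482) and 9 did not pass. Dendritic cell markers (9 genes) summed to 11.4, 14.9 and 12.1 FPKM in aged injury, 10.5, 12.7 and 9.94 FPKM in aged sham, and 7.88, 8.06 and 9.2 FPKM in young sham, as a sum highest in replicate 2 of each aged group. Ccr7, which is also in the lineage and homing list, was at 0.157, 2.18 and 0.446 FPKM in aged injury and 0.157, 2.13 and 0.667 FPKM in aged sham. Cd209a and Zbtb46 were lowest in aged sham 2, and Zbtb46 in aged injury 2 as well. Of the 8 tested, Cd209a and Zbtb46 rose in aged injury against young sham (limma adjusted p = 0.00935 and 0.0122), and 6 did not pass.

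Markers of lymph node vessels and stroma (7 genes, 3 tested) summed to 1.96, 31.6 and 8.99 FPKM in aged injury, 0.637, 9.32 and 2.28 FPKM in aged sham, and 0.217, 0.487 and 0.564 FPKM in young sham, as a sum highest in replicate 2 of the aged groups. Most of the aged injury sum was Glycam1, a secreted mucin of lymph node vessels and of mammary tissue, at 1.09, 26.7 and 7.7 FPKM in aged injury and 0, 5.88 and 1.37 FPKM in aged sham, and listed at 0 in young sham (limma adjusted p = 0.0279 for aged injury against young sham). Cr2 and Fcer2a, the other tested genes, were also highest in replicate 2 of both aged groups. Madcam1 was not, at 0.262, 0.154 and 0.0564 FPKM in aged injury and 0.109, 0.0631 and 0.438 FPKM in aged sham. Chst4 stayed at 0.186 FPKM or less. Of the chemokines that define lymph node stroma, Ccl21a was listed at 0 in all libraries and Ccl19 was found in 1 library, aged injury 3, at 0.0925 FPKM. Reads that match more than 1 gene could have been dropped in counting, so a listed 0 does not show that Ccl21a was absent.

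Natural killer and gamma-delta T cell markers stayed low (9 of 11 with a row, 1 tested), summing to 0.855, 2.61 and 0.567 FPKM in aged injury, 0.163, 1.0 and 0.491 FPKM in aged sham, and 0.669, 0.509 and 0.789 FPKM in young sham. Their sum too was highest in replicate 2 of both aged groups. Trdc and Sh2d1b1, the others of the 11, had no row. Ncr1, which defines natural killer cells in mice, was at no more than 0.237 FPKM in any library and Klrb1c at no more than 0.242 FPKM. Klre1 reached 0.56 FPKM in aged injury 2. Tcrg-C2, the 1 tested, was at 0.492, 0.87 and 0.159 FPKM in aged injury and 0, 0.356 and 0 FPKM in aged sham. In young sham it was at 0, 0.16 and 0.178 FPKM. Its log2 difference between aged injury and aged sham was 1.68 (limma adjusted p = 0.268). Red blood cell genes summed to 261, 297 and 183 FPKM in aged injury, 484, 308 and 386 FPKM in aged sham, and 136, 285 and 375 FPKM in young sham, an order that was not that of the T cell genes. Sensory neuron genes, the check of the tissue, summed to 4580, 4070 and 4640 FPKM in aged injury, 4840, 4380 and 5100 FPKM in aged sham, and 4810, 5210 and 4740 FPKM in young sham, lowest in replicate 2 of each aged group. Genes of Schwann cells and satellite glia summed to 3100, 3130 and 3480 FPKM in aged injury, 3800, 3690 and 3690 FPKM in aged sham, and 5040, 4680 and 4800 FPKM in young sham. The part of these cell types, of the sex of the pools and of whatever sets replicate 2 apart in the levels of the 33 genes was not tested.

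**Figure D5:**
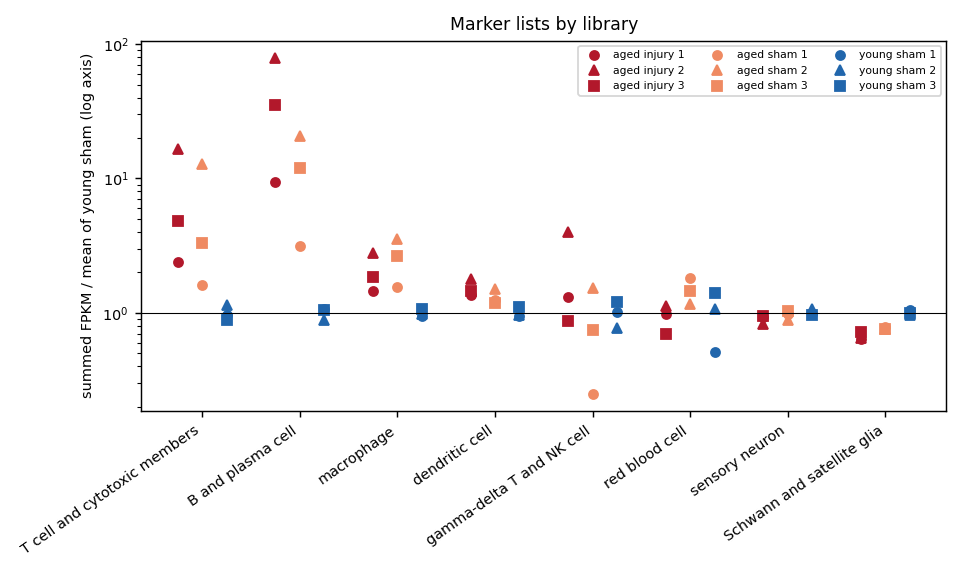
Summed FPKM of each marker list in each library divided by the mean of the young sham libraries, on a log axis, for aged injury, aged sham and young sham (circle, triangle and square for replicates 1, 2 and 3). In the T cell, B and plasma cell, macrophage, dendritic cell, and gamma-delta T and natural killer cell lists, replicate 2 (triangle) is the highest of its aged group. The neuron list stays close to 1 and the glia list lies below 1 in every aged library.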

How the data were processed

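Per the labels' protocols, RNA of whole sciatic ganglia was made into TruSeq mRNA libraries and read on a HiSeq instrument. The authors deposited FPKM per gene and library, in a table of 45904 identifiers. Tools listed in the submitters' processing notes, without roles, include HTSeq 0.6.0, TopHat2 2.0.12, edgeR 3.8.6, Bowtie2 2.2.3 and limma 3.22.7, with build mm10. The annotation release and strand handling are not stated in the labels or notes. Symbols and positions came from GENCODE M21 on the same build, and 250-base promoters from RefSeq.

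The 17601 genes (24 members) that averaged 0.2 FPKM or more entered limma 3.58.1 (R 4.3.3) as log2(FPKM + 0.1), with a variance trend. All 9 libraries entered 1 fit of 3 groups, with no block. Tests were two-sided, with Benjamini-Hochberg adjustment and a threshold of 0.05. The fit was tested on simulated data, with changes set only in genes averaging 1 FPKM or more and noise independent between genes and libraries. It therefore does not show how the fit treats lower members or a library that is high for most members. Whole reads (within 0.001) were found for 1500 of 1500 low genes searched, known up to a common factor per gene. They gave the relative depths and serve to state precision, which 0 to 3 reads limit.

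The 33 members and the other lists were chosen with earlier results of these data known. All members were described. Of other lists, most genes named are among the 4 with the smallest p in aged sham against young sham, or were called. Madcam1, Chst4 and Klre1 were named after values were seen, and Trdc and Sh2d1b1 because they had no row. Ncr1, Klrb1c, Ccl19, Ccl21a, Cd79a, Cd79b and Ms4a1 were named as defining markers, the last 3 for a ratio chosen after values were seen. Some genes of these lists are not reported here, and counts and sums are without them. Alternatives changed the pseudocount, filter, scaling, samples, weights, block and a Y-linked covariate, and left out single libraries. Leaving out replicate 2 of both aged groups was added after the data were seen. No column was left out (0 unmapped).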

Additional observations from a re-analysis of the deposited data

How the results depend on the processing

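Each comparison counts calls among the 24 tested genes. In aged sham against young sham, 0 were called, against 1 (Lat) with 0.01 added before logs, 1 (Lat) with the replicate block, and 2 each (Lat and Trbc1) with a filter at 1 FPKM, which left 10 members, and with array weights. Leaving out single libraries gave 0 to 0. In aged injury against aged sham, 0 were called in all alternatives run. In aged injury against young sham, 3 were called, against 0 with 1 added, 8 with 0.01 added, 0 with no filter, 10 with array weights, 11 with the replicate block and 0 with the Y-linked covariate. Leaving out single libraries gave 0 to 4, and leaving out replicate 2 of both aged groups gave 2. The cause of these moves was not tested.

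The replicate numbers do not pair the samples by the labels. Deviations of same-numbered aged injury and aged sham libraries correlated at 0.245, 0.27 and 0.062, each aged library best with its own number, a hint from the data and not from the design. With young sham, same-numbered libraries correlated at -0.067 to -0.02.

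Of 466 log2 differences per comparison (24 genes, each under the alternatives run), 452 kept their direction and side of the threshold in the comparison of the sham groups, 411 between injury and sham in aged mice, and 406 in aged injury against young sham. Directions that turned, all without a call, follow as log2 values. With the Y-linked covariate, aged sham against young sham gave -0.06 for Cd247, -0.65 for Cd6, -0.08 for Ctsw, -0.16 for Zap70, -0.30 for Cd3d, -0.53 for Gzmk and -0.54 for Cd8b1. Aged injury against aged sham then gave -0.27 for Nkg7, -0.18 for Cd247, -0.11 for Cd4, -0.51 for Cd5, -0.04 for Cd6, -0.48 for Cd2, -0.41 for Lat, -0.40 for Cd3e, -0.38 for Cd3d, -0.78 for Cd8b1 and -0.10 for Trac. Aged injury against young sham then gave -0.23 for Cd247, -0.49 for Cd5, -0.69 for Cd6, -0.68 for Cd3d, -0.14 for Gzmk, -1.32 for Cd8b1 and -0.64 for Cd8a. In aged injury against aged sham, array weights gave -0.01 for Cd5, -0.29 for Cd2, -0.19 for Lat, -0.15 for Cd3e and -0.16 for Cd8b1. There, 1 FPKM added gave 0.01 for Gzma, 0.00 for Cd8a and 0.01 for Trbc1, and leaving out replicate 2 of both aged groups gave -0.12 for Cd2 and 0.05 for Cd8a, and -1.07 for Gzma, which did not turn.

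With single libraries left out, Klrd1 ranged from -0.19 to 1.42 in aged sham against young sham. In aged injury against aged sham the ranges were -0.47 to 0.19 for Tbx21, -0.74 to 0.55 for Gzma, -0.85 to 0.91 for Cd8a, -0.97 to 0.71 for Trbc1, -0.10 to 1.92 for Cd3g, -0.28 to 1.02 for Nkg7, -0.47 to 1.02 for Cd247, -0.36 to 0.83 for Cd4, -0.50 to 1.38 for Cd5, -0.19 to 0.95 for Cd28, -0.76 to 0.78 for Cd2, -0.59 to 0.85 for Lat, -0.57 to 1.04 for Cd3e, -0.37 to 1.46 for Cd3d, -0.77 to 1.70 for Cd8b1, -0.15 to 1.01 for Trac and -0.04 to 1.43 for Cd6. Many young sham levels rest on 0 to 3 reads, which limits the log2 differences against them.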
